A study of Mus musculus with 12 samples.

Results

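The Cyp4a genes Cyp4a10, Cyp4a12a, Cyp4a12b and Cyp4a14 and their neighbour Cyp4b1 encode cytochrome P450 fatty acid hydroxylases. They were followed through every probe set annotated to any of the 5 genes, alone or together with another Cyp4a symbol. That gave 4 of the 45037 probe sets tested, and they represent 4 of the 5 genes. Cyp4a14, Cyp4a12a and Cyp4b1 have 1 probe set each. Another carries the symbols Cyp4a10 and Cyp4a31 together, so the signals of these near copies cannot be told apart on it. Cyp4a12b has no probe set of its own here, and no source used says whether the probe set of Cyp4a12a also reads it. The family was picked for the change of Cyp4a14 in infused wild-type kidneys, so the changes of its 4 probe sets with infusion in wild-type kidneys are described below without a test. Genes outside those 4 were tested in that comparison on the same arrays.

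Male mice aged 2.5 months, F1 hybrids between C57BL6 and 129/SvEv, formed 4 groups of 3, and 1 kidney RNA sample per mouse was measured on an Affymetrix mouse expression array. The groups were AT1A receptor-deficient mice (KO, labelled AGTR1A-KO) infused with angiotensin II (KO ANG II), untreated KO mice (KO baseline), infused wild-type mice (WT ANG II) and untreated wild-type mice (WT baseline). Angiotensin II, a peptide that raises blood pressure, was given for 2 days at 1 ug/kg/min, and all 4 groups are labelled as on the NS diet. Each deposited value is a ratio, in which the probe set's median over the 12 arrays is set to 1, so levels of different genes, and whether a probe set was above background, cannot be read.

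Enzymes of the Cyp4 family put a hydroxyl group on the last carbon of a fatty acid (omega-hydroxylation), using electrons from P450 reductase and cytochrome b5. In the proximal tubule of the kidney they act on medium- and long-chain fatty acids and on arachidonic acid, whose omega-hydroxylated product is a vasoactive lipid. Cyp4a10 and Cyp4a14 are classical targets of the fatty acid receptor PPAR alpha, whereas Cyp4a12a is the main arachidonic acid omega-hydroxylase of the male mouse kidney and is induced by androgens. Cyp4b1 acts on shorter fatty acids and on xenobiotics, and it too depends on androgens in the mouse kidney.

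In RefSeq's GRCm38.p6 the genes lie side by side on chromosome 4, in the order Cyp4x1, Cyp4a29, Cyp4a12a, Cyp4a12b, Cyp4a30b, Cyp4a14, Cyp4a10, Cyp4a31, Cyp4a32 and Cyp4b1. Of the member genes, Cyp4b1 is the one whose promoter stood in the RefSeq promoter table (build GRCm38.p6), as a window of 250 bases before to 50 bases after the annotated start. It is printed with the promoters of 2 genes outside the family that are described below, Cyp2j13, whose values were most like those of Cyp4a12a, and Acot3, whose values were among the 5 most like those of the Cyp4a10 and Cyp4a31 probe set. Cyp4b1 is at chr4:115647672-115647971 on the minus strand, Cyp2j13 at chr4:96077491-96077790 on the minus strand and Acot3 at chr12:84051894-84052193 on the plus strand. Capitals mark matches on either strand to AGGTCA, the half-site of PPAR and RXR receptors, to a direct repeat of that half-site with a spacer of 1 base, which can overlap it, or to AGAACA, the half-site of androgen and glucocorticoid receptors.
Cyp4b1: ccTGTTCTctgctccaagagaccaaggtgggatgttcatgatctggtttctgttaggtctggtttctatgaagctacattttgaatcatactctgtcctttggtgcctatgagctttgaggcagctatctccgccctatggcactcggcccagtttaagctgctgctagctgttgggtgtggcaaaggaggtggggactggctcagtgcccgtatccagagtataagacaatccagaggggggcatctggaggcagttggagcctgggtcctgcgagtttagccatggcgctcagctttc
Cyp2j13: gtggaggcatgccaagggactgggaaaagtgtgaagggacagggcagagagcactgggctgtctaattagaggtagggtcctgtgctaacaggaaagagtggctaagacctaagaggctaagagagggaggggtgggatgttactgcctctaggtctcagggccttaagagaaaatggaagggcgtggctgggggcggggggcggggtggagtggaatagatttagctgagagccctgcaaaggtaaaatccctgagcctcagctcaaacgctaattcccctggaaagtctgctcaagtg
Acot3: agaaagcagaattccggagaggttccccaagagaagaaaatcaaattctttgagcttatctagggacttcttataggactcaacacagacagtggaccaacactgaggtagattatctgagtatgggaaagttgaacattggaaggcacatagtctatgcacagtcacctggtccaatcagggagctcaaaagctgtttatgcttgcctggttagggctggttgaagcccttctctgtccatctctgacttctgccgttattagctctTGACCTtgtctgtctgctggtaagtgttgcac
The Cyp4b1 window held 1 match to AGAACA, on the other strand as TGTTCT at bases 3 to 8 of the window, and 0 to the other motifs. The Acot3 window held 1 match to AGGTCA, on the other strand as TGACCT, and that of Cyp2j13 held none of the 3 motifs. Over all 32851 windows of this length, 16.3% held AGGTCA, 0.381% the direct repeat and 19.0% AGAACA. A match is a description of letters and not a binding site.

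Facts of the whole series bear on what follows. Agtr1a, the targeted gene, gave ratios of 0.923 to 1.04 in KO baseline and 1.36 to 1.40 in WT baseline kidneys (log2 difference -0.49 ± 0.08, n = 3 per group, limma adjusted p = 0.00306), but 0.917 to 1.05 in KO ANG II and 0.957 to 1.00 in WT ANG II kidneys (-0.00 ± 0.08, adjusted p = 0.98). The gene therefore separates the genotypes at baseline alone, and the position of its probe set relative to the deletion is not known here. Log2 ratios spread most widely in the WT ANG II arrays (SD 0.268 to 0.342 over all probe sets), against 0.164 to 0.262 in the other 9. The error given with a log2 change is limma's moderated standard error (SE) from a single fit to the 12 arrays, and 3 arrays per group limit the precision of every value.

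Infused wild-type kidneys were compared with untreated ones to see how the hydroxylases change when the receptor is present. Cyp4a14 was far higher, the Cyp4a10 and Cyp4a31 probe set moderately higher, Cyp4a12a 2.01-fold lower, and Cyp4b1 slightly lower. The family therefore did not move as one. The wild-type values of Cyp4a14 chose the family and are given as a description.

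Cyp4a14 had ratios of 21.37, 32.15 and 24.97 in the WT ANG II kidneys, against 0.762, 0.409 and 0.618 in the WT baseline kidneys. Every infused kidney was far above every untreated one. The log2 change was 5.48 ± 0.35 (95% interval 4.74 to 6.22, n = 3 per group), a 44.7-fold difference and the highest of 45037 probe sets. Serpina6, the corticosteroid-binding globulin, was next with 3.00. Renewed quantile normalization of the deposited values brought the log2 change of Cyp4a14 to 3.95, and its rank was not taken under that setting.

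The probe set shared by Cyp4a10 and Cyp4a31 had ratios of 2.51, 2.475 and 3.051 in WT ANG II kidneys, against 1.079, 0.914 and 0.941 in WT baseline kidneys. The groups did not overlap, and the log2 change was 1.45 ± 0.11, or 2.73-fold, which was rank 43 among rises. Cyp4a31 also has 2 probe sets that carry its symbol alone. The first had ratios of 1.384, 1.182 and 1.336 in WT ANG II kidneys, against 1.009, 1.106 and 1.141 in WT baseline kidneys, with a log2 change of 0.26 ± 0.10. The second had 1.269, 1.116 and 1.626 in WT ANG II kidneys, against 1.045, 0.944 and 0.933 in WT baseline kidneys, with 0.44 ± 0.11. Both lay above baseline in every infused kidney, by less than the shared probe set.

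Cyp4a12a, the arachidonic acid hydroxylase, had ratios of 0.423, 0.66 and 0.51 in WT ANG II kidneys, against 1.015, 0.985 and 1.155 in WT baseline kidneys. Its values in all 3 infused kidneys were below all 3 untreated ones. The log2 change was -1.01 ± 0.15, so the ratio was 2.01-fold lower with the infusion, and with quantile normalization it was -0.69. Cyp4b1 had ratios of 0.821, 0.866 and 0.864 in WT ANG II kidneys, against 0.988, 1.012 and 1.047 in WT baseline kidneys. These too did not overlap, although the log2 change was only -0.26 ± 0.07, or 1.19-fold lower. In all, 4 of 4 probe sets had groups that did not overlap, 2 above and 2 below, as did 39.0% of all probe sets in this comparison.

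**Figure D1:**
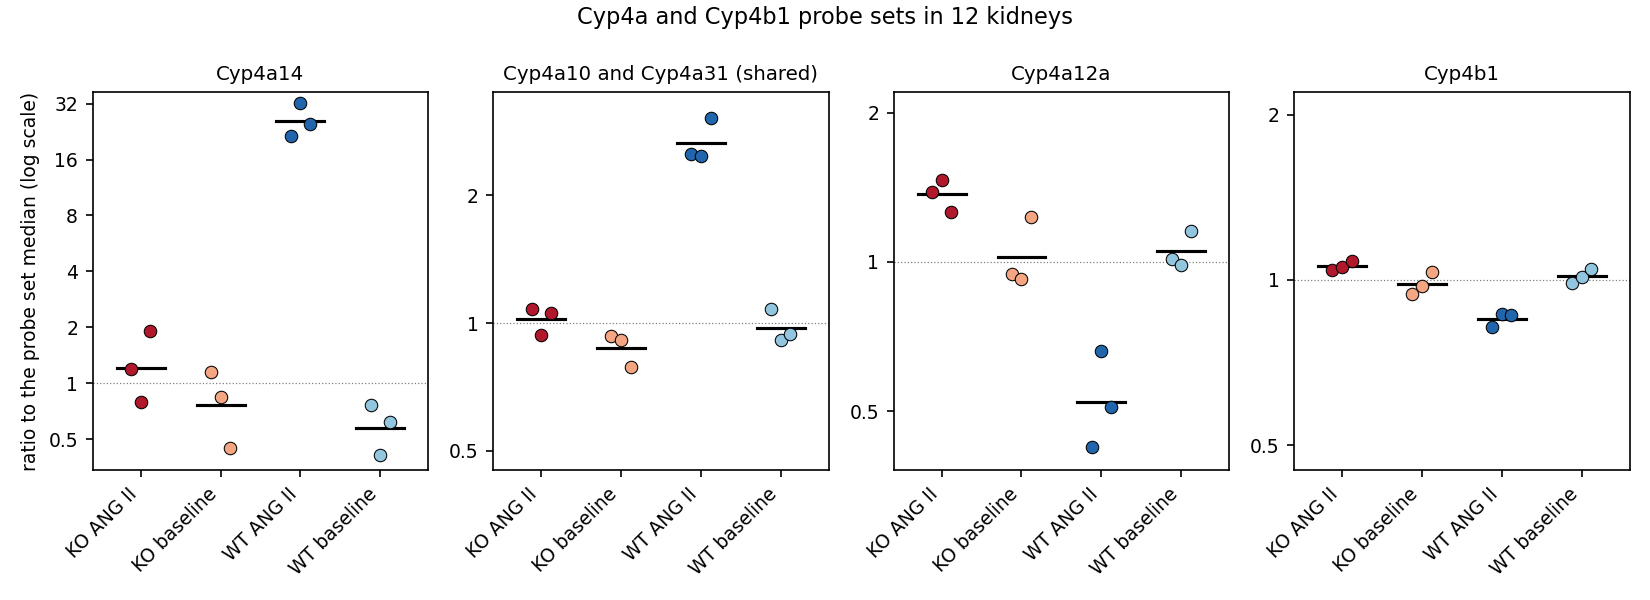
Ratio of each kidney to the probe set's median over 12 arrays (log axis, a separate range for Cyp4a14) for the 4 probe sets, with points for the 3 kidneys of a group and a bar for their geometric mean. The WT ANG II kidneys stand at 21.37 to 32.15 for Cyp4a14 and at 2.475 to 3.051 for the Cyp4a10 and Cyp4a31 probe set, and at 0.423 to 0.66 for Cyp4a12a and 0.821 to 0.866 for Cyp4b1, away from the other 3 groups in each panel.

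The same infusion in mice without the receptor shares no array with the values that chose the family, so it was tested. None of the 4 probe sets was called in KO kidneys by limma at an adjusted p under 0.05, whereas 9.91% of all probe sets were (3.6% upward and 6.31% downward), and 1 of the 4 had an unadjusted p under 0.05. All 4 estimates were above 0. The share of all probe sets called depended on single arrays, with 5.82% and 4.59% without KO ANG II replicate 2 or 3 and 5.95%, 4.82% and 6.59% without KO baseline replicate 1, 2 or 3, and it was 15.5% with array weights.

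Cyp4a14 had ratios of 1.19, 0.788 and 1.916 in KO ANG II kidneys, against 1.152, 0.848 and 0.448 in KO baseline kidneys, and the groups overlapped. The log2 change was 0.68 ± 0.35 (95% interval -0.06 to 1.42, limma adjusted p = 0.221). The interval allows a rise of up to 1.42. The change was 0.30 to 0.99 with an array left out, with 0.30 without KO baseline replicate 3 and 0.35 without KO ANG II replicate 3, and the adjusted p ran from 0.117 to 0.601 over all alternative settings.

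Cyp4a12a had ratios of 1.384, 1.464 and 1.26 in KO ANG II kidneys, against 0.946, 0.922 and 1.229 in KO baseline kidneys. All 3 infused KO kidneys were above all 3 untreated ones, with 1 untreated kidney close to them. The log2 change was 0.42 ± 0.15 (interval 0.10 to 0.74, unadjusted p = 0.0142, adjusted p = 0.0898, limma), so it did not pass the threshold over all probe sets. It passed with quantile normalization (0.53, limma adjusted p = 0.0243) and without KO baseline replicate 3 (0.55, limma adjusted p = 0.0487), with a range of 0.0243 to 0.261 over all settings.

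The Cyp4a10 and Cyp4a31 probe set had ratios of 1.078, 0.936 and 1.059 in KO ANG II kidneys, against 0.931, 0.912 and 0.789 in KO baseline kidneys, a log2 change of 0.22 ± 0.11 (interval -0.01 to 0.46, limma adjusted p = 0.195). Cyp4b1 had 1.044, 1.056 and 1.082 in KO ANG II kidneys, against 0.941, 0.974 and 1.033 in KO baseline kidneys, a log2 change of 0.11 ± 0.07 (interval -0.05 to 0.27, limma adjusted p = 0.344). Counting Cyp4a12a, 3 of the 4 probe sets lay above baseline in every infused KO kidney, where 19.4% of all probe sets did. The 2 probe sets of Cyp4a31 alone pointed the other way, at -0.23 ± 0.10 and -0.18 ± 0.11 (limma adjusted p = 0.147 and 0.327), and in both every infused KO kidney was below every untreated one. Lying above baseline in WT and below it in KO, as these 2 did, held for 1.55% of all probe sets.

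Setting the responses side by side, Cyp4a14 changed by 0.68 in KO and by 5.48 in WT, a difference of -4.80 ± 0.49 on the log2 scale, or 27.9-fold. For the Cyp4a10 and Cyp4a31 probe set the changes were 0.22 in KO and 1.45 in WT, a difference of -1.23 ± 0.15. The signs were opposite for Cyp4a12a, with 0.42 in KO and -1.01 in WT and a difference of 1.42 ± 0.21, and for Cyp4b1, with 0.11 in KO and -0.26 in WT and a difference of 0.37 ± 0.10. These differences contain the wild-type response and are given without a test. In the probe sets of Cyp4a12a and Cyp4b1 all infused WT kidneys were below all untreated WT kidneys. All infused KO kidneys were above all untreated KO kidneys. Both held together for 2.82% of all probe sets. With quantile normalization the difference of Cyp4a14 was -3.11.

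The genotypes were then compared in the same state. Without treatment, the 3 relatives of Cyp4a14 differed little between KO and WT, and 0 of 3 were called (limma; 0 also at an unadjusted p under 0.05), where 6.52% of all probe sets were. That share was 4.24% and 2.76% without KO baseline replicate 1 or 2, 3.56% and 2.46% without WT baseline replicate 2 or 3, and 10.8% with array weights. The log2 differences of KO from WT were -0.16 ± 0.11 for the Cyp4a10 and Cyp4a31 probe set (interval -0.39 to 0.07), -0.04 ± 0.15 for Cyp4a12a (-0.36 to 0.28) and -0.05 ± 0.07 for Cyp4b1 (-0.21 to 0.11). Cyp4a14 differed by 0.39 ± 0.35, with overlapping groups, and is given without a test because the comparison shares the WT baseline kidneys with the one that chose it.

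Under infusion all 3 relatives differed between the genotypes, where 19.8% of all probe sets were called. That share was 11.1% and 11.3% without KO ANG II replicate 1 or 3, 12.4% without WT ANG II replicate 3, 11.1% with the 2 groups alone and 9.02% with quantile normalization. The Cyp4a10 and Cyp4a31 probe set was 2.61-fold lower in KO ANG II than in WT ANG II kidneys (log2 difference -1.38 ± 0.11, limma adjusted p = 3.47e-06). Cyp4a12a was 2.62-fold higher in KO ANG II than in WT ANG II kidneys (1.39 ± 0.15, limma adjusted p = 4.4e-05), and its ratios of 1.26 to 1.464 in KO ANG II kidneys all lay above the highest untreated kidney of either genotype. Cyp4b1 was 1.25-fold higher in KO ANG II than in WT ANG II kidneys (0.32 ± 0.07, limma adjusted p = 0.00884). Cyp4a14 stood 21.2-fold lower in KO ANG II than in WT ANG II kidneys (-4.41 ± 0.35), again without a test. These comparisons share the WT ANG II kidneys with the one that chose the family.

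Within groups the 4 probe sets differed widely in spread. The residual SD of Cyp4a14 was 0.546 on the log2 scale, higher than that of 99.8% of probe sets, and its highest kidney exceeded its lowest 2.43-fold in KO ANG II, 2.57-fold in KO baseline, 1.5-fold in WT ANG II and 1.86-fold in WT baseline. Cyp4a12a had a residual SD of 0.214 (above 90.4% of probe sets) and the Cyp4a10 and Cyp4a31 probe set one of 0.136 (above 53.1%). Cyp4b1 was the most even, with 0.047 (above 1.34%). The same log2 change thus had a very different standard error in Cyp4a14 than in Cyp4b1.

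Across kidneys the probe sets fell into 2 pairs. Cyp4a14 and the Cyp4a10 and Cyp4a31 probe set correlated at r = 0.97 (Pearson) and rho = 0.74 (Spearman) over the 12 arrays, and r was 0.67 over the 9 arrays other than WT ANG II. Cyp4a12a and Cyp4b1 had r of 0.96 and rho of 0.94, and r was 0.83 over the 9 arrays. Between the pairs r was -0.83 to -0.87 over the 12 arrays, but 0.12 to 0.21 over the 9, so the negative values rested on the infused wild-type kidneys. These values describe 12 arrays that share a normalization and 4 groups that stand apart, and they carry no test.

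The genes outside the family whose log2 ratios followed each probe set most closely over the 12 arrays were taken by Pearson r. For Cyp4a12a these were Cyp2j13, an epoxygenase of arachidonic acid (r = 0.98), Slco1a1, an organic anion transporter of the proximal tubule (0.97), Tmco3 (0.97), Ace, which makes angiotensin II (0.97), and the anion transporter Slc17a3 (0.97). Over the 9 arrays other than WT ANG II the 5 still had r of 0.79 to 0.96, with 0.92 for Cyp2j13 and 0.96 for Slco1a1. Those with the lowest r were Prkab1, Npm1 and Rpl10a, at -0.96 to -0.97. For Cyp4b1 the 5 highest were Hsf2bp, Dnph1, 1700037H04Rik, Lrrk2 and Amacr, a racemase of branched-chain fatty acids, at 0.96 to 0.97, and 0.84 to 0.92 over the 9 arrays.

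For Cyp4a14 the most alike was Tmem37 (r = 0.97, and 0.85 over the 9 arrays), followed by Rpl6, Jdp2, Srsf6 and Eef1a1 at 0.95 to 0.96, whose r over the 9 arrays was 0.30 to 0.62. Acsm1, Nvl and Srsf3 had the lowest r, each -0.97. For the Cyp4a10 and Cyp4a31 probe set they were Eef1a1, the acyl-CoA thioesterase Acot3, Rdh16f2, Sowahb and Ubxn10 at 0.96 to 0.97, with 0.29 to 0.65 over the 9 arrays. Apart from Tmem37, the genes most like these 2 probe sets had lower r over the 9 arrays (0.29 to 0.65) than those most like Cyp4a12a and Cyp4b1 (0.79 to 0.96).

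The neighbouring genes on the chromosome, were chosen by position after the data were seen. The next 4 protein-coding genes on the Cyp4x1 side (Cyp4x1, Pdzk1ip1, Tal1 and Stil) had log2 changes of 0.02 to 0.28 in KO and -0.05 to 0.26 in WT. Of these Tal1 was called higher in WT (0.26 ± 0.08, limma adjusted p = 0.034), a call that ended under 8 of 20 alternative settings. On the Cyp4b1 side, Efcab14 fell by 0.56 in KO and fell by 0.40 in WT (limma adjusted p = 0.00225 and 0.00783), and neither call held with the mean of its probe sets (limma adjusted p = 0.081 and 0.78). The others on that side, Tex38, Atpaf1 and Mob3c, had -0.01 to 0.07 in KO and -0.25 to 0.21 in WT, and Atpaf1 was called lower in WT (-0.25 ± 0.08, limma adjusted p = 0.0443), a call that ended under 12 of 19. Cyp4a12a, lower in infused wild-type kidneys, and Cyp4a14, higher in them, lie with no other measured gene between them.

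**Figure D2:**
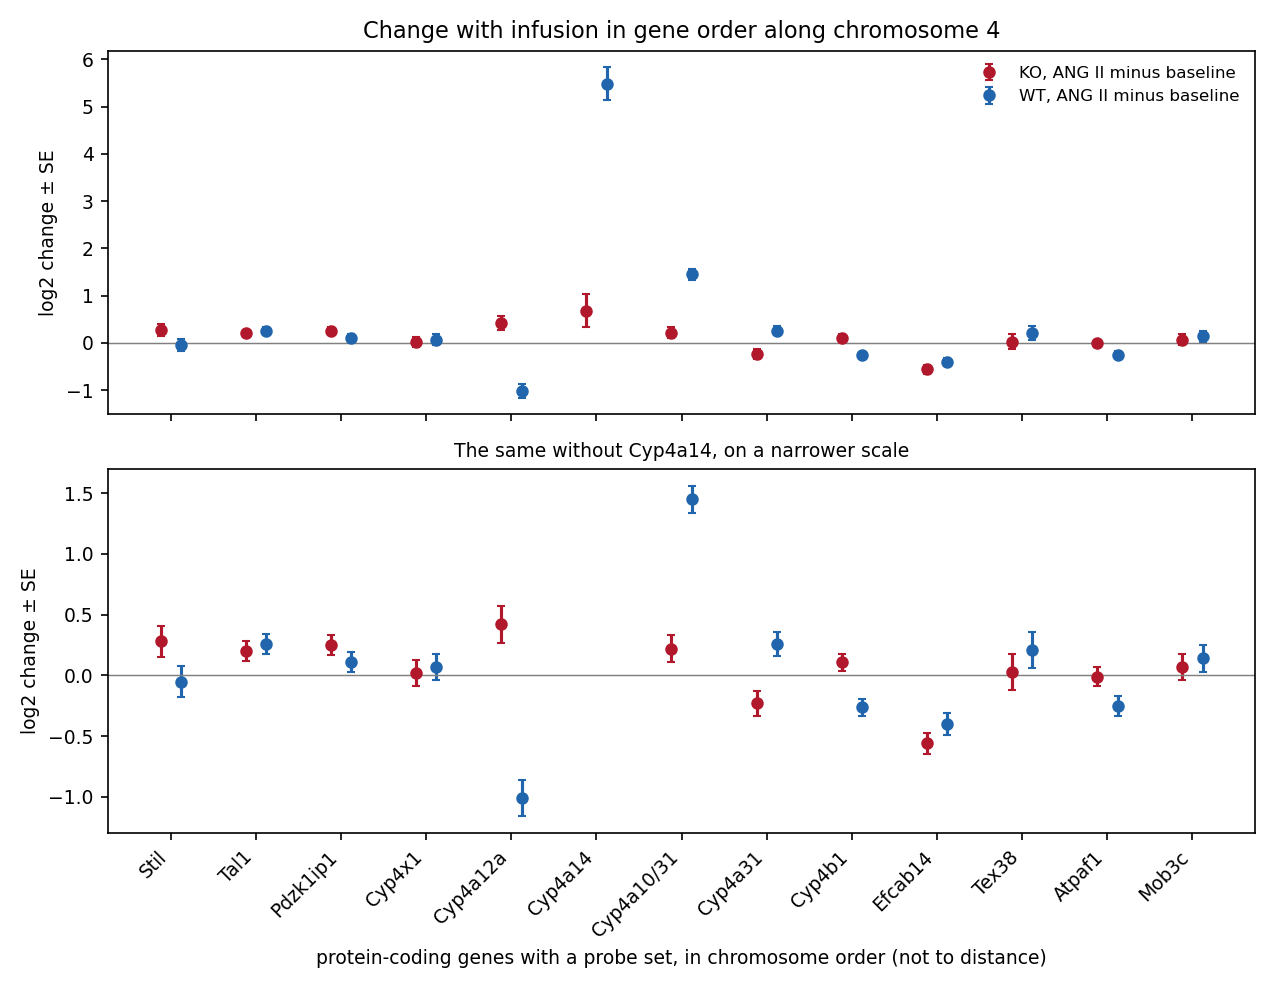
Log2 change with infusion (ANG II minus baseline, ± SE, 3 kidneys per group) in KO and WT for the measured protein-coding genes around the Cyp4a cluster, in chromosome order and not to distance, with Cyp4a14 left out of the lower panel so that the others can be read. In WT, Cyp4a14 at 5.48 and the Cyp4a10 and Cyp4a31 probe set at 1.45 stand above 0 beside Cyp4a12a at -1.01, while the KO values run from -0.56 to 0.68.

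Other genes of the same pathway were counted 1 probe set per gene, from lists chosen by function. The counts hold for that probe set, and other probe sets of some of these genes were called where it was not. Background shares are over the 18193 genes. In KO 4.28% were called higher and 5.73% lower, in WT 9.61% higher and 14.5% lower, with medians of 0.06 in KO and 0.03 in WT. With an array left out these shares ran from 1.42% to 5.29% higher and from 2.97% to 6.39% lower in KO, and from 3.91% to 11.4% higher and from 8.38% to 16.0% lower in WT. The lowest came without KO ANG II replicate 3 in KO and without WT baseline replicate 1 in WT, and quantile normalization gave 3.27% higher and 8.92% lower in WT. In the wider Cyp4 family (Cyp4a31, the Cyp4f genes, Cyp4v3 and Cyp4x1), 1 of 9 measured genes changed in KO kidneys. Cyp4v3, a hydroxylase of the retinal pigment epithelium and other tissues, fell by 0.56 (limma adjusted p = 0.00664), and its change in WT was 0.24 ± 0.11. It was already higher in KO baseline than in WT baseline kidneys, by 0.50 ± 0.11 (limma adjusted p = 0.0162). Here and for the genes below, this comparison shares the KO baseline kidneys with the KO response. An error in those kidneys would move the comparison and the response in opposite directions, so they are not independent. In the WT response 0 of the 9 were called (limma; 3 at an unadjusted p under 0.05), and the median log2 change was 0.02 in KO and 0.09 in WT. The second probe set of Cyp4a31 was called in WT (limma adjusted p = 0.0146) while the one counted was not. No measured Cyp4f gene was called in either genotype.

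Epoxygenases turn arachidonic acid into vasodilator epoxides, and epoxide hydrolases degrade them. Among the listed Cyp2c and Cyp2j genes, the families that hold the epoxygenases, and the epoxide hydrolases, 19 genes were measured. In KO kidneys 1 of them rose, Cyp2c68 at 0.44 ± 0.09, and 1 fell, the microsomal epoxide hydrolase Ephx1 at -0.64 ± 0.15, a call that ended with quantile normalization (limma adjusted p = 0.116) and without KO ANG II replicate 3 or KO baseline replicate 2 (limma adjusted p = 0.0724 and 0.0691). Both had differed between KO baseline and WT baseline kidneys in the other direction, Cyp2c68 by -0.40 ± 0.09 and Ephx1 by 0.62 ± 0.15 (limma adjusted p = 0.0149 and 0.0253). That difference again shares the KO baseline kidneys with the KO response. In WT kidneys 4 rose and 4 fell, and the median change was 0.10 in KO and 0.13 in WT. Cyp2j13 had ratios of 0.285, 0.519 and 0.294 in WT ANG II kidneys, against 1.01, 0.943 and 1.28 in WT baseline kidneys (log2 change -1.60 ± 0.19, limma adjusted p = 0.000117). Ephx2, the soluble epoxide hydrolase, fell by 0.74 (limma adjusted p = 8.65e-05) and Cyp2j11 fell by 0.69. Of the rises, Cyp2c54 had 0.54 ± 0.11 (limma adjusted p = 0.00382). Cyp2j6 had 1 probe set, not the one counted, that was called lower in WT.

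Of 4 genes listed as electron donors of P450 enzymes, 3 were measured. Por, the P450 reductase, had no probe set that carries its symbol alone. In KO kidneys 0 of the 3 were called (limma; 0 also at an unadjusted p under 0.05), and 2 fell in WT kidneys. Cyb5b fell by 0.43 (limma adjusted p = 0.00141) and Cyb5a, the microsomal cytochrome b5, fell by 0.32 (limma adjusted p = 0.00877). The third, Cyb5r3, had 0.20 on the probe set counted, while its other 3 probe sets were called lower.

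Of 18 measured enzymes that act after omega-hydroxylation, by oxidizing the alcohol and aldehyde or by shortening dicarboxylic acids in peroxisomes, 1 rose and 0 fell in KO (median -0.08). That was the alcohol dehydrogenase Adh1 at 0.26 ± 0.07 (limma adjusted p = 0.0433), a call that ended under 14 of the 20 alternative settings. In WT 2 rose and 5 fell (median -0.02). Among probe sets not counted, Crat had 1 called higher and Hsd17b4 1 called lower in KO. In WT, Adh5, Hsd17b4 and Scp2 each had 1 called lower. Acot3, a peroxisomal thioesterase, had a log2 change of 0.22 ± 0.15 in KO (limma adjusted p = 0.377). It had ratios of 2.19, 1.81 and 2.90 in WT ANG II kidneys, against 1.01, 0.877 and 1.05 in WT baseline kidneys (log2 change 1.21 ± 0.15, limma adjusted p = 0.00018). Acaa1a, the peroxisomal thiolase, fell by 0.92 in WT on 1 of its 2 probe sets, and the fatty aldehyde dehydrogenase Aldh3a2 fell by 0.50 (limma adjusted p = 0.00169).

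Of the receptors and coregulators of the PPAR pathway, 12 were measured. In KO 1 of 12 fell, the corepressor Nrip1 at -0.46 ± 0.10 (limma adjusted p = 0.0124, called on 2 of its 6 probe sets), a call that ended with the mean of its probe sets (limma adjusted p = 0.176). Nrip1 was higher in KO baseline than in WT baseline kidneys by 0.53 ± 0.10 (limma adjusted p = 0.00846). Probe sets not counted were called higher in WT for Nrip1 (2 of 6) and Ppargc1a (1 of 5). Ncoa2 had 1 such probe set called higher and 1 lower in WT, and Ppargc1a 1 lower in KO. In WT 1 of 12 rose, Ppara itself, with ratios of 1.5, 1.09 and 1.61 in WT ANG II kidneys, against 0.897, 0.78 and 1.02 in WT baseline kidneys (log2 change 0.63 ± 0.14, limma adjusted p = 0.00743, called on 2 of its 3 probe sets). Of 20 measured PPAR alpha targets outside the Cyp4a genes, 0 rose and 1 fell in KO (median 0.03), against 7 and 3 in WT (median 0.21). Among probe sets not counted, Fabp3 and Cd36 each had 1 called higher in KO, and Angptl4 and Aqp7 each 1 called lower. In WT, Angptl4 and Fabp1 each had 1 such probe set called higher and Cpt1a 1 called lower. Pdk4, a brake on glucose oxidation, fell by 1.44 in KO (limma adjusted p = 0.0148), a call that ended without KO ANG II replicate 2 or 3 or KO baseline replicate 2 or 3 (limma adjusted p = 0.0513 to 0.0651). Its ratios were 1.12, 1.82 and 2.05 in KO baseline kidneys, against 0.526, 0.357 and 0.579 in WT baseline kidneys, so it was higher in untreated KO kidneys by 1.75 ± 0.33 (limma adjusted p = 0.00694). In WT Pdk4 rose by 1.89 ± 0.33 and the thioesterase Acot1 by 0.74 ± 0.18. The call of Acot1 ended with quantile normalization (limma adjusted p = 0.0597). The fatty acid transporter Cd36 fell by 1.26 and the fatty acid binding protein Fabp3 fell by 0.63 on 1 of 2 probe sets.

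**Figure D3:**
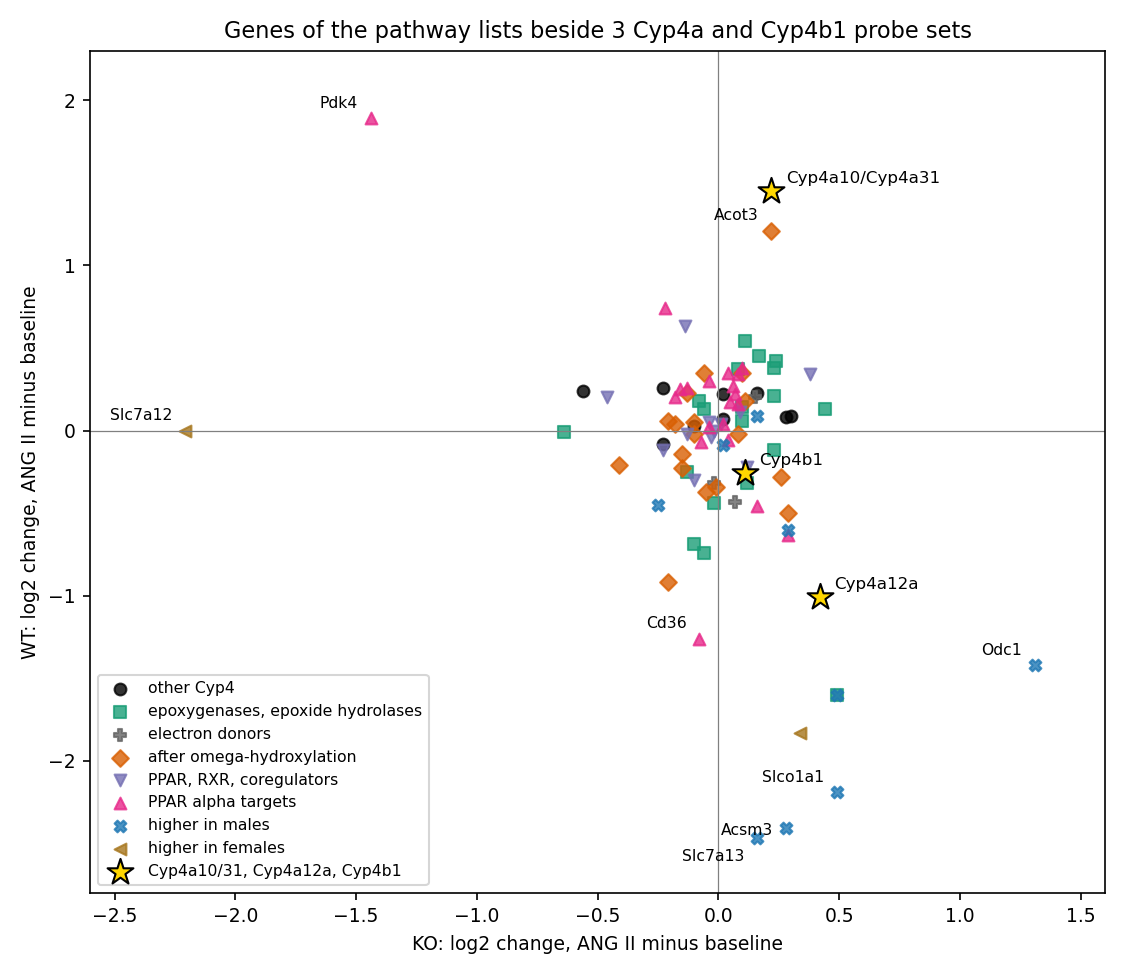
Log2 change with infusion (ANG II minus baseline) in KO on the x axis and in WT on the y axis for the genes of the pathway lists, 1 probe set per gene, with the Cyp4a10 and Cyp4a31, Cyp4a12a and Cyp4b1 probe sets as stars and Cyp4a14 (0.68 in KO and 5.48 in WT) outside the range and not drawn. Acot3 lies near the Cyp4a10 and Cyp4a31 probe set, and 5 of the genes higher in males lie below -1 in WT, among them Slco1a1 at 0.49 in KO and -2.19 in WT.

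Genes known to be higher in male than in female mouse kidneys were counted beside Cyp4a12a and Cyp4b1, whose levels depend on androgens. In KO kidneys 1 of 9 such genes rose and 0 fell (median 0.28), where 4.28% of all genes rose. That was Odc1, the first enzyme of polyamine synthesis, with ratios of 2.70, 2.35 and 2.52 in KO ANG II kidneys, against 0.837, 0.925 and 1.36 in KO baseline kidneys (1.31 ± 0.15, limma adjusted p = 0.000191). In WT Odc1 fell by 1.42 (limma adjusted p = 5.01e-05). The count in KO was 4 with quantile normalization. In WT kidneys 7 of the 9 fell and 0 rose (median -1.42), where 14.5% of all genes fell. Acsm3, a medium-chain acyl-CoA synthetase, had ratios of 0.185, 0.284 and 0.121 in WT ANG II kidneys, against 1.02, 0.95 and 0.982 in WT baseline kidneys (log2 change -2.41 ± 0.21, limma adjusted p = 1.29e-05). Slco1a1 had 0.223, 0.306 and 0.212 in WT ANG II kidneys, against 0.98, 1.02 and 1.39 in WT baseline kidneys (-2.19 ± 0.18, limma adjusted p = 7.93e-06). Slc7a13, an amino acid transporter, fell by 2.47. With a variance trend the calls of Slc7a13 and Acsm3 ended (limma adjusted p = 0.0562 and 0.107).

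The 2 of these genes not called in WT, named here after their values were seen, were Kap and Cyp2e1. Kap, an androgen-regulated protein of the proximal tubule, had -0.09 ± 0.07 and 1 of its 2 probe sets called lower, and Cyp2e1, a P450 of small xenobiotics, had 0.09 ± 0.10. The genes higher in males thus did not move as one either. The response was higher in KO than in WT for 6 of the 9 by the test of the difference and lower for 0, where 6.95% of all genes were higher and 3.29% lower (4.01% and 1.98% without KO ANG II replicate 3). In untreated kidneys 0 of 9 differed between KO and WT (limma; 2 at an unadjusted p under 0.05), where 6.56% of all genes did (2.51% without WT baseline replicate 3).

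Of 2 measured genes higher in females, the amino acid transporter Slc7a12 fell by 2.21 in KO (limma adjusted p = 0.016), a call that ended without KO baseline replicate 2 (limma adjusted p = 0.0633). The anion transporter Slc22a7 fell by 1.83 in WT (limma adjusted p = 8.74e-05). All mice were male, so no value here compares the sexes.

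**Figure D4:**
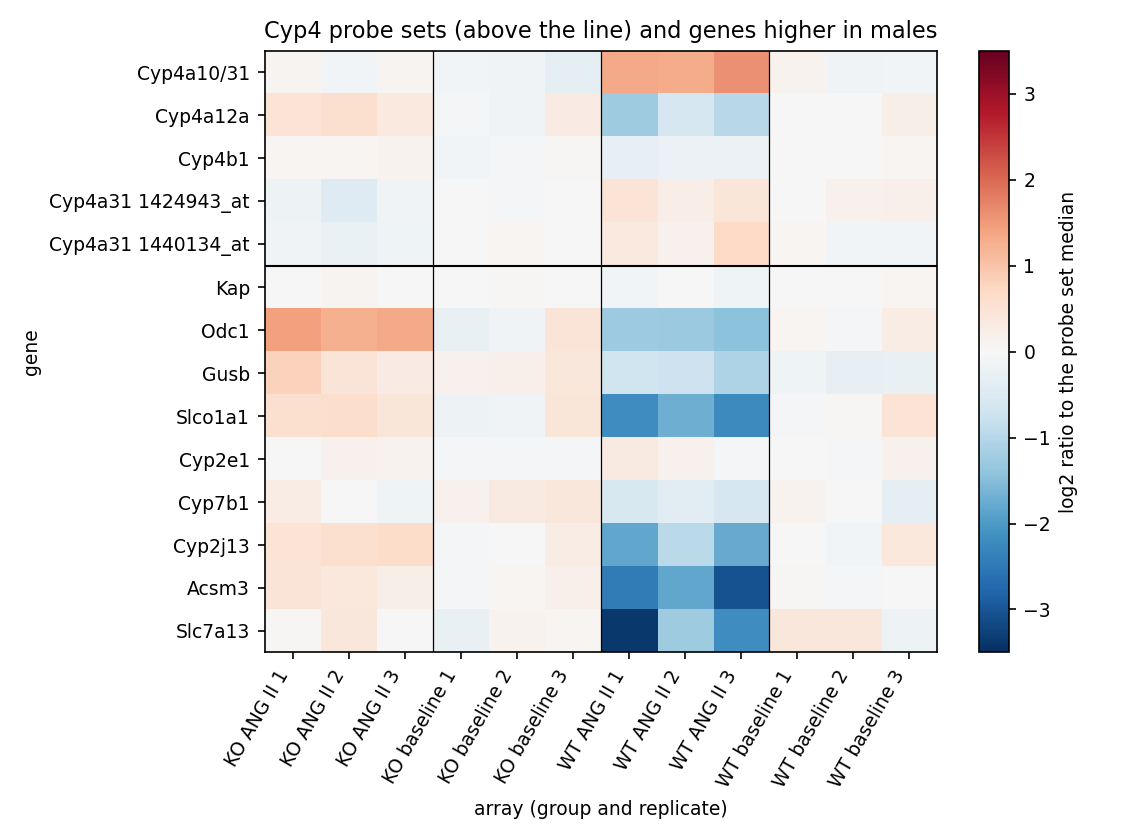
Log2 ratio to the probe set median in each of the 12 kidneys (colour scale) for 5 Cyp4 probe sets, above the line, and the 9 genes higher in males, below it. Cyp4a12a and 7 of the 9 genes are low in the WT ANG II kidneys, Odc1 is high in the KO ANG II kidneys at ratios of 2.35 to 2.70, and Kap and Cyp2e1 stay near 0 throughout.

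Markers of cell types that a kidney sample can hold were read beside these changes. In bulk kidney RNA fewer cells of a type and less RNA per cell cannot be told apart. The mean log2 ratio of 12 proximal tubule markers, the cells that express the Cyp4a genes, was -0.01 to 0.06 in KO ANG II, -0.08 to -0.01 in KO baseline, -0.22 to -0.03 in WT ANG II and -0.05 to 0.16 in WT baseline kidneys. In KO 1 of the 12 rose, Slc5a2 at 0.44 ± 0.10 (a call that ended without KO ANG II replicate 3 or KO baseline replicate 3), and 0 fell. Slc5a2 was lower in KO baseline than in WT baseline kidneys, with a log2 difference of -0.44 ± 0.10 (limma adjusted p = 0.0225). In WT 5 fell and 1 rose, among them the glucose transporter Slc5a2, which fell by 0.67, and the endocytic receptor Cubn, which rose by 0.65. The part of the proximal tubule in the changes of the Cyp4a genes was not tested. Of 6 adipocyte markers 0 were called in either genotype (limma; 1 in KO and 0 in WT at an unadjusted p under 0.05). Of 7 adrenal cortex markers 1 rose in KO (Cyp11b1 at 0.36 ± 0.10) and 1 in WT (Mc2r at 0.38 ± 0.11). Of 6 hepatocyte markers 0 were called in KO (limma; 1 at an unadjusted p under 0.05), and 1 rose and 1 fell in WT. These were Apoa1 at 0.33 ± 0.11 and Ttr at -1.09 ± 0.15, with Ttr called lower on 4 of its 4 probe sets. Of 7 endothelial markers 1 rose and 3 fell in KO, and 1 rose and 3 fell in WT. In KO Kdr rose (0.35), and Vwf (-1.23), Tek (-0.48) and Pecam1 (-0.33) fell. In WT Flt1 rose (0.55), and Emcn (-0.60), Tek (-0.40) and Kdr (-0.33) fell. Vwf was higher in KO baseline than in WT baseline kidneys by 1.25 ± 0.19 (limma adjusted p = 0.00197). These marker counts use 1 probe set per gene. Over all genes, 4.28% were called higher and 5.73% lower in KO, and 9.61% higher and 14.5% lower in WT. In KO, other probe sets were called lower for the adipocyte marker Fabp4 (1 of 4) and the endothelial Cdh5 (1 of 2). The adrenal Cyp21a1 had 1 of 2 called higher in KO. In WT, among proximal tubule markers, Slc22a8 had 1 called higher, and Slc13a3 had 1 called higher and 1 lower. Which of these markers are at 0 cannot be read from ratios.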

How the data were processed

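Total RNA of snap-frozen kidneys was hybridised to Affymetrix mouse expression arrays. Per the submitters' processing notes the values came from RMA, which corrects background, normalizes by quantiles and summarises probes. The deposited values are linear ratios, and the division of each probe set by its median over the 12 arrays was read from the values (45099 of 45101 medians lay within 0.002 of 1). They were put on the log2 scale here without a pseudocount. After 64 control probe sets were left out, 45037 were tested, with no filter on low values. Gene symbols were those of the platform annotation, where 34945 probe sets carried 1 symbol, 932 several and 9160 none.

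A mean for each group was fitted with limma 3.58.1 in R 4.3.3 (8 residual and 5.83 prior degrees of freedom). Tests were two-sided with Benjamini-Hochberg adjustment over all probe sets within each of 5 comparisons, and a call is an adjusted p under 0.05. The fit was tested on simulated data. Replicates are separate mice per the design text. A gene of a list was represented by its plainest probe set (_at before _a_at, _s_at and _x_at, then the lowest number), and up to 4 called genes per list and comparison, or 2 where none was called, were named. The genes followed and the lists were chosen with earlier results of these data known. The alternatives were a replicate block, quantile normalization, centring, array weights, a variance trend, the 2 groups alone, a filter on low spread, probe set means and each array left out. The correlations over 9 arrays were added after seeing the data.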

Additional observations from a re-analysis of the deposited data

Results flagged for a closer look

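In 4 probe sets every infused kidney of 1 genotype lay above every untreated kidney of that genotype. In the other genotype every infused kidney lay below every untreated one. Infused and untreated kidneys came from different mice. The difference of the log2 changes, KO minus WT, was 1.42 for Cyp4a12a and 0.37 for Cyp4b1, and these were not tested. It was -0.49 and -0.62 for the 2 probe sets of Cyp4a31, given without a test because the same values drew the flag. Lying below baseline in WT and above it in KO held for 2.82% of all probe sets, and the reverse for 1.55%.

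For some named genes of the lists the difference between the genotypes was called by the interaction term of the limma fit. These genes were named for a called response, which the difference contains, so the calls partly follow from that choice. Over all genes the difference was called higher in KO for 6.95% and lower for 3.29%. The KO response was above the WT response by 2.73 for Odc1, 2.69 for Acsm3, 2.68 for Slco1a1, 2.63 for Slc7a13, 2.17 for Slc22a7, 2.09 for Cyp2j13 and 1.18 for Cd36. Smaller differences of the same sign were 1.1 for Slc5a2, 0.92 for Fabp3, 0.82 for Slc22a6, 0.80 for Aldh3a2, 0.68 for Ephx2, 0.60 for Cyp2j11, 0.54 for Adh1 and 0.50 for Cyb5b. The difference was negative for Pdk4 (-3.32), Acot3 (-0.99), Acot1 (-0.96), Cyp4v3 (-0.80), Ppara (-0.77) and Nrip1 (-0.66). Named genes whose difference was not called included Slc7a12, Ephx1, Cyb5a, Cyp2c54, Acaa1a, Cubn and Cyp2c68 (limma adjusted p = 0.0705 to 0.124).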

How the results depend on the processing

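Of 1209 recomputed values, 1141 were taken as the same. Another 53 calls of single genes or probe sets ended, 2 were gained, 13 values moved further, and 0 changed sign with a call. The same meant an unchanged direction and side of the threshold, or a value within the replicate spread. Changes of sign without a call also counted, as for Cyp4a12a between untreated genotypes (-0.04, but 0.04 without KO baseline replicate 2). So did counts near the main one, such as 24 list genes in WT with quantile normalization against 35. The count of the 4 Cyp4 probe sets called in KO was 1 with quantile normalization and 0 to 1 with an array left out, the 1 being Cyp4a12a. Quantile normalization gave 3.95 for Cyp4a14 in WT and -3.11 for its difference between the genotypes, against 5.23 to 5.68 and -5.18 to -4.49 with an array left out. List genes called in KO numbered 8, but 13 with array weights and 4 to 10 with an array left out (5 without KO ANG II replicate 3 and 4 without KO baseline replicate 2). Genes higher in males called in KO numbered 4 with quantile normalization, 2 with the 2 groups alone and 1 to 2 with an array left out. The low-spread filter dropped Cyp4b1. The causes were not tested. The labels do not say that a replicate number pairs mice. Deviations from the group means correlated at -0.157 to 0.219 in same-numbered arrays, over 0.1 in 6 of 18 pairs. In differently numbered arrays they correlated at -0.294 to 0.236, over 0.1 in 6 of 36. Same-numbered WT ANG II and WT baseline arrays had 0.128 to 0.186, and same-numbered KO ANG II and KO baseline arrays -0.157 to -0.01. Whether a number stands for a shared batch was not tested. With the replicate block 7 list genes were called in KO against 8 without it, 37 in WT against 35, and 0 of the 4 Cyp4 probe sets in KO. Ratios do not show how far a signal stood above background.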
